A study of Mus musculus with 2 samples.

Results

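The genes described here are the ligands, receptors and Smads at the core of transforming growth factor beta (TGF-beta) signalling in mouse heart. They were chosen by name: the ligands Tgfb1, Tgfb2 and Tgfb3, the receptors Tgfbr1, Tgfbr2 and Tgfbr3, and the intracellular mediators Smad2, Smad3, Smad4 and Smad7. All 10 were found among the 43346 Ensembl genes of each deposited gene table, together with their 44 annotated transcripts. Poly(A) RNA came from the heart of 1 adult female C57BL/6J mouse aged 10 weeks, and 2 libraries were sequenced from it. The labels call them technical replicates 1 and 2 of 1 biological replicate, with the second library made after the publication that used the first. There is no treated, mutant or control group, so each comparison below is between 2 libraries of 1 animal, and no value carries to other mice.

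TGF-beta ligands are made as precursors that are cut by furin-like proteases and secreted in a latent complex held in the extracellular matrix. Once released, a ligand binds the type II receptor Tgfbr2, which recruits and phosphorylates the type I receptor Tgfbr1, while Tgfbr3 (betaglycan) is a co-receptor that presents ligand and is best known for its binding of Tgfb2. The type I receptor phosphorylates Smad2 and Smad3, these enter the nucleus with the shared partner Smad4, and Smad7 is an inhibitory Smad that is itself induced by the pathway. In the heart the pathway is best known for its part in valve and septum formation in the embryo and in fibroblast activation and matrix deposition in the adult.

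Replicate 1 held 22775991 expected counts and replicate 2 held 19685821. Mitochondrial genes took most of the first library, so nuclear genes kept 7.22% of its TPM (an abundance corrected for transcript length and summing to the same total in every library) against 39.1% in replicate 2. Levels are therefore given as nuclear TPM, the TPM rescaled to its usual total without the mitochondrial genes or nuclear copies of them. In these units 1 deposited TPM equals 13.9 in replicate 1 and 2.56 in replicate 2. The TGF-beta genes rested on 2553 counts in replicate 1 and 4810 in replicate 2, so counting error was larger in replicate 1. Cardiomyocyte markers such as Tnnt2, a thin filament protein, were abundant in both libraries, with 1660 and 15545 nuclear TPM for Tnnt2.

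All 10 genes had counts in both libraries, and Smad4 stood first in each. Their summed level was 251 nuclear TPM in replicate 1 and 169 in replicate 2 (mean 210 ± 58.0, SD, n = 2 technical libraries). In deposited TPM the sums were 18.1 and 66.1, so the direction depends on the rescaling. Receptors made up 51.1% of that sum in replicate 1 and 37.3% in replicate 2. Smads made up 42.3% and 44.2%, and ligands 6.56% and 18.5%. By sum, the ligands were the least abundant role in both libraries. At a limit of 1 deposited TPM, 5 of the 10 genes passed in replicate 1 and all 10 in replicate 2. This limit is 13.9 nuclear TPM in replicate 1 and 2.56 in replicate 2, so the counts of genes are not at a like level. In bulk tissue, fewer cells of a type and less RNA per cell cannot be told apart, so no level here is assigned to a cell type.

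**Figure D1:**
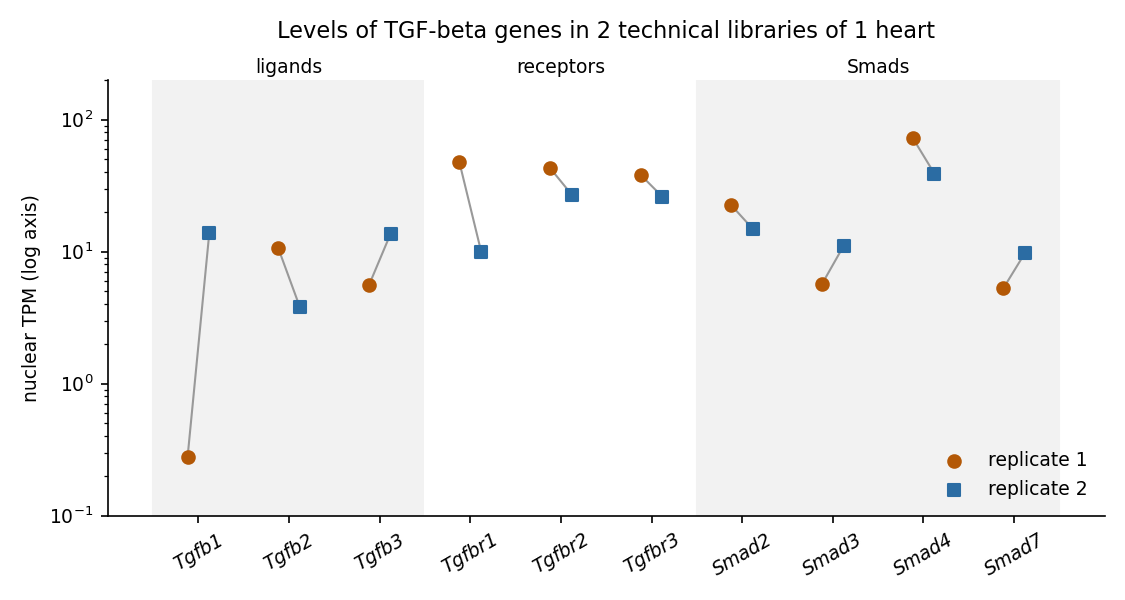
Level of each TGF-beta gene in nuclear TPM (log axis) in replicate 1 (circles) and replicate 2 (squares), joined by a line and grouped as ligands, receptors and Smads. Smad4 is highest in both libraries, at 72.9 and 39.1 nuclear TPM, and Tgfb1 in replicate 1 stands apart at 0.277.

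Tgfb1, the ligand best known for immune control and fibrosis, gave the widest gap between the libraries. It lies on chr7:25687002-25705077 (mm10, plus strand; gene spans here are from GENCODE release M21). It had 1 count in replicate 1 and 209 in replicate 2, or 0.277 and 13.9 nuclear TPM. Of the nuclear genes with counts, 5.06% lay below it in replicate 1 and 60.8% in replicate 2, so its place in the transcriptome depends on the library. Tgfb2, known for its part in heart valve development, lies on chr1:186622792-186705989 (minus strand). It had 123 and 120 counts, which are 10.7 and 3.79 nuclear TPM. Tgfb3, needed for palate fusion and lung development, lies on chr12:86056745-86079041 (minus strand). It had 41 and 330 counts, or 5.54 and 13.7 nuclear TPM. Tgfb2 was thus the highest of the ligands in replicate 1 and the lowest in replicate 2.

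Tgfb1 and Tgfb3, the ligands that were higher in replicate 2, are shown as sequences because they encode closely related proteins from RNAs of different base composition. Below are the 4 codons of the furin-type processing site in capitals, followed in lower case by the first 60 bases of the mature ligand domain, 5′ to 3′ on the coding strand, spliced, from GENCODE release M21 (mm10). They span chr7:25697235-25704158 for Tgfb1 (plus strand) and chr12:86059020-86062065 for Tgfb3 (minus strand).
Tgfb1: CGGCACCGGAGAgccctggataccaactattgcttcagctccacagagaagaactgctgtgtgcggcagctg
Tgfb3: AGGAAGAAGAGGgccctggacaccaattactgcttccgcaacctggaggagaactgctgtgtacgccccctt

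Over the 112 codons of the mature domain, Tgfb1 and Tgfb3 encode the same residue at 87 codons (77.7%). At the level of bases the identity was 73.5%. GC content, the share of G and C bases, was 57.4% in the mature domain of Tgfb1 and 57.1% in that of Tgfb3. Over whole transcripts it was 62.5% for Tgfb1, 53.0% for Tgfb3 and 47.0% for Tgfb2. The order of the ligands by transcript GC content was the order of their log2 ratios between the libraries, given below.

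Tgfbr1, the type I receptor kinase that phosphorylates Smad2 and Smad3, lies on chr4:47353222-47414931 (plus strand). It had 610 counts in replicate 1 and 407 in replicate 2, or 47.4 and 9.98 nuclear TPM. Tgfbr2, the type II receptor that binds ligand and activates Tgfbr1, lies on chr9:116084293-116175360 (minus strand), with 455 and 927 counts and 42.9 and 27.0 nuclear TPM. Tgfbr3 lies on chr5:107106570-107289629 (minus strand). This co-receptor had 526 and 1161 counts, or 38.1 and 26.0 nuclear TPM. The receptors lay close together in replicate 1. In replicate 2 Tgfbr2 and Tgfbr3 stayed close and Tgfbr1 was the lowest of them. In nuclear TPM the receptor sum was 2.04-fold higher in replicate 1, at 128 against 63.0. The ligand sum was 1.90-fold higher in replicate 2, at 31.4 against 16.5. In deposited TPM both sums were higher in replicate 2, at 9.27 and 24.6 for receptors and 1.19 and 12.3 for ligands. The direction of the receptor sum thus depends on the rescaling without mitochondrial genes and their nuclear copies.

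Tgfbr2 has 2 annotated transcripts whose coding sequences differ by an inserted exon, and this exon is shown because the libraries differed in the transcript that carries it. The longer transcript, Tgfbr2-202, holds 75 further coding bases in its exon 2 (25 codons; coding positions 95 to 169), near the start of the extracellular part of the receptor. They lie at chr9:116158271-116158345 (mm10, minus strand). In the line below, from GENCODE release M21, the inserted bases are in capitals and 15 coding bases on each side are in lower case.
Tgfbr2-202 insert: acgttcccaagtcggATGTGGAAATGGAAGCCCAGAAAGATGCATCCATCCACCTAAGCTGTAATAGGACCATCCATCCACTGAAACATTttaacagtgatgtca

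Of the receptor-activated Smads, Smad2 (chr18:76241580-76310963, plus strand) had 137 counts in replicate 1 and 258 in replicate 2. These gave 22.4 and 14.8 nuclear TPM. Smad3 (chr9:63646767-63757994, minus strand), its close relative that binds DNA directly, had 65 and 407 counts, or 5.68 and 11.1 nuclear TPM. Smad2 was above Smad3 in both libraries. Smad4 (chr18:73639009-73703780, minus strand), the partner shared with bone morphogenetic protein (BMP) signalling, had 544 and 766 counts and 72.9 and 39.1 nuclear TPM. It lay above 85.1% of the nuclear genes with counts in replicate 1 and above 81.0% in replicate 2. Smad7 (chr18:75367529-75395935, plus strand), the inhibitor that brings ubiquitin ligases to the type I receptor, had 51 and 225 counts. Its levels were 5.26 and 9.77 nuclear TPM.

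The order of the 10 genes differed between the libraries below Smad4. In replicate 1 it ran Smad4, Tgfbr1, Tgfbr2, Tgfbr3, Smad2, Tgfb2, Smad3, Tgfb3, Smad7, Tgfb1. In replicate 2 it ran Smad4, Tgfbr2, Tgfbr3, Smad2, Tgfb1, Tgfb3, Smad3, Tgfbr1, Smad7, Tgfb2. Neighbours were compared by the ratio of their counts per effective length (the length over which a read can start) with an exact binomial 95% interval, which covers counting error only. In replicate 1 the interval excluded 1 for 5 of 9 neighbouring pairs. The others were Tgfbr1 with Tgfbr2, Tgfbr2 with Tgfbr3, Smad3 with Tgfb3, and Tgfb3 with Smad7. In replicate 2 it excluded 1 for 4 of 9. There Tgfbr2 and Tgfbr3, Smad2 and Tgfb1, Tgfb1 and Tgfb3, Smad3 and Tgfbr1, and Tgfbr1 and Smad7 could not be ranked. As a mean over both libraries, Smad4 was at 56.0 ± 23.9 nuclear TPM (SD, n = 2) and Tgfbr2 at 35.0 ± 11.3. For Tgfb1 the SD exceeded the mean, at 7.10 ± 9.64.

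Between the libraries, Tgfb1, Tgfb3 and Smad3 were higher in replicate 2 and Tgfb2 and Tgfbr1 were lower, while the other 5 genes did not reach the 2-fold threshold. The comparison used edgeR's two-sided exact binomial test on counts scaled by TMM (trimmed mean of M values), fitted over 13182 genes with at least 20 counts. A call needed at least a 2-fold difference and an adjusted p (Benjamini-Hochberg) under 0.05. It compares these libraries, not conditions. Of all genes tested, 38.4% were called higher in replicate 2 and 27.1% lower, so 3 and 2 of the 10 genes lie near the background of the libraries and are no result about TGF-beta genes. Their median log2 ratio (replicate 2 over replicate 1, with 0.5 counts added) was -0.39, beside 0.21 over all genes tested.

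By role, 2 ligands were higher and 1 was lower in replicate 2. Tgfb1 was higher by a log2 ratio of 5.66 (edgeR adjusted p = 3.54e-26). With 1 count in replicate 1, its scaled count ratio was 75.4 with a 95% exact interval of 13.4 to 2994. Tgfb3 was higher by a log2 ratio of 1.52 (edgeR adjusted p = 6.62e-13). Tgfb2 had a log2 ratio of -1.51 (edgeR adjusted p = 3.07e-15). The ligands therefore moved in opposite directions between libraries of the same heart. Among the receptors, Tgfbr1 alone was called, with a log2 ratio of -2.05 (edgeR adjusted p = 5.23e-110), while Tgfbr2 was at -0.44 and Tgfbr3 at -0.33. Of the Smads, Smad3 was higher by 1.17 on the log2 scale (edgeR adjusted p = 6.20e-11). Smad2 was at -0.56, Smad7 at 0.66, and Smad4 at -0.98, just inside the 2-fold threshold. With DESeq2's size factors in place of TMM, Smad4 was at -1.08 and was called lower.

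GC content moved with these ratios. Over all 13155 tested genes with a GC value, the median log2 ratio went from -2.04 in the 1316 genes poorest in GC (29.9% to 41.8%) to 4.57 in the 1316 richest (57.9% to 72.8%). Among the 10 genes, Tgfbr1 had the lowest GC content, 41.1%, and the lowest log2 ratio, and Tgfb1 had the highest of both. Across the 10 genes Pearson's r between GC content and log2 ratio was 0.86 and Spearman's rho 0.78. Over all tested genes they were 0.85 and 0.90. These are correlations across genes of the same pair of libraries, which share depth and preparation, and genes are not independent replicates. With the GC content of the coding sequence of the leading transcript they were 0.62 and 0.77 for the 10 genes.

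**Figure D2:**
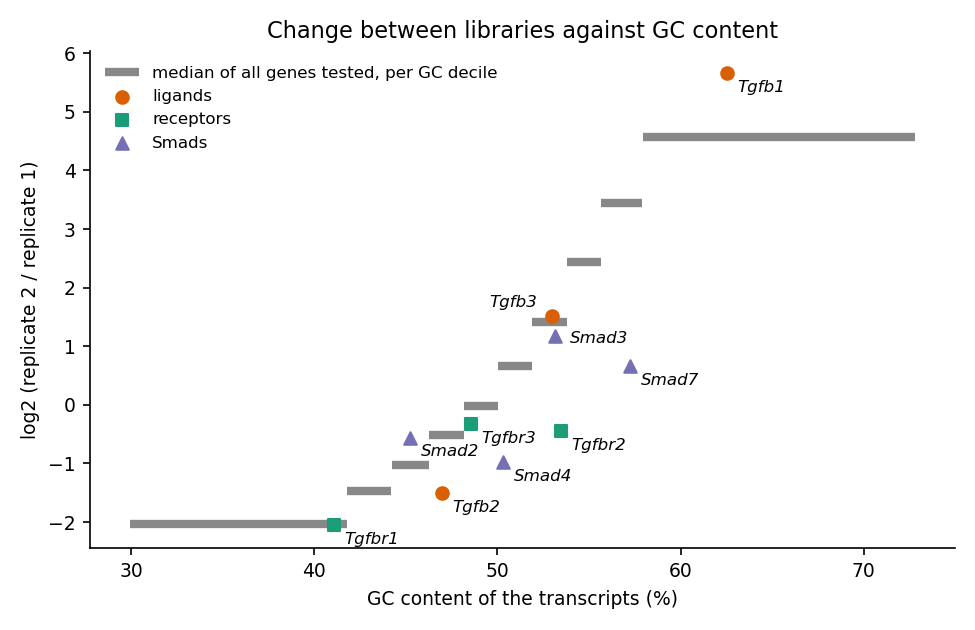
Log2 ratio of replicate 2 over replicate 1 against the GC content of the transcripts in percent; grey bars are medians of all tested genes in 10 equal groups by GC content, and points are the TGF-beta genes by role. Tgfbr1, Tgfb3, Smad3 and Tgfbr3 lie close to the bars, and Smad7, Tgfbr2, Smad4 and Tgfb2 lie below them.

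The ratios were also computed after removing the trend with GC content, taken as the median log2 ratio in 50 bins over all genes. Then 10.2% of all genes tested were called higher and 10.9% lower. None of the 10 genes was called higher, and 3 were called lower: Smad7 at -2.97 (edgeR adjusted p = 3.50e-25), Tgfbr2 at -2.07 (edgeR adjusted p = 3.73e-111) and Smad4 at -1.41 (edgeR adjusted p = 1.16e-60). None of these passed the 2-fold threshold before. Tgfb1 went from 5.66 to 0.53 (edgeR adjusted p = 0.822), Tgfb3 from 1.52 to 0.06, Tgfb2 from -1.51 to -0.86, Tgfbr1 from -2.05 to -0.27 and Smad3 from 1.17 to -0.42, so all 5 calls ended. The direction of Smad2, Smad3 and Smad7 thus turned with the removal of the trend.

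The GC values of Tgfbr2 and Smad2 are less certain than the others, since their leading transcripts have other lengths in the deposited tables (4710 and 2857 bases) than in release M21 (3476 and 8089). The trend was therefore also removed by coding GC content, which was added after the data had been seen, and 19.2% of all genes tested were called higher and 21.1% lower. Tgfbr2, at -2.83, and Smad7, at -2.77, were again called lower. Smad4, at -0.87, was not, while Tgfb2 at -1.44 and Smad3 at -1.22 were. Tgfb1 was then called higher at 3.05, so its ratio depends on which GC measure is used.

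**Figure D3:**
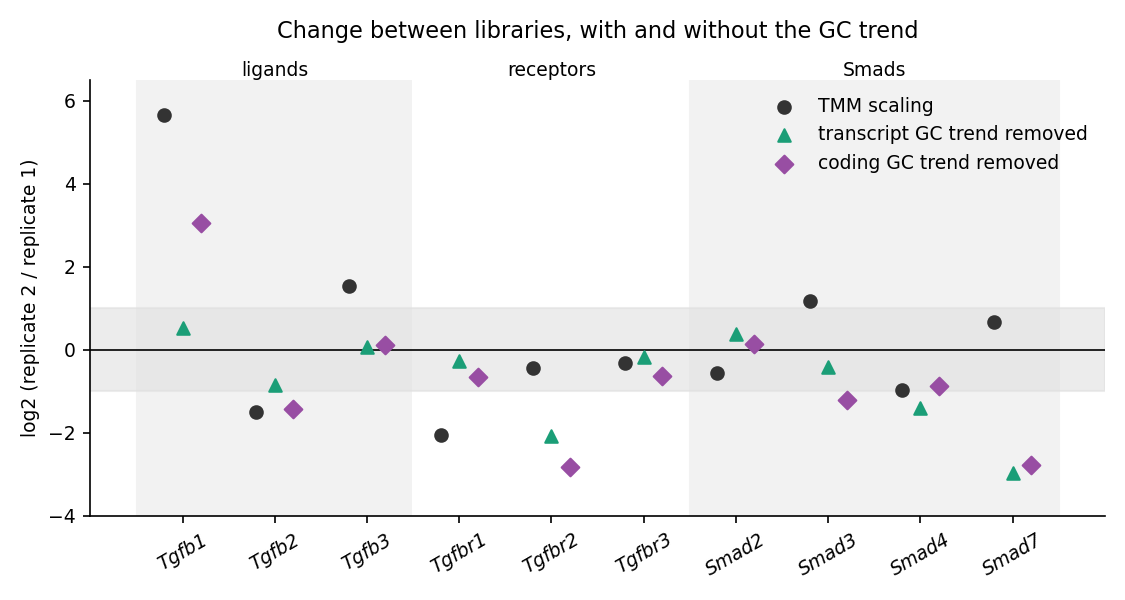
Log2 ratio of replicate 2 over replicate 1 for each TGF-beta gene with TMM scaling (circles), with the transcript GC trend removed (triangles) and with the coding GC trend removed (diamonds); the grey band is under 2-fold. Tgfbr2 and Smad7 lie below the band under both removals, and Tgfb1 moves from 5.66 to 0.53 and 3.05.

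Ratios between 2 genes of 1 library do not depend on how that library is scaled, and 11 pairs were compared in this way. The pair had the same direction in both libraries for 6 of 11, and for 4 of these the 95% interval excluded 1 in both. All 4 were ratios among Smads. The ratios were also taken with replicate 1 brought to the GC profile of replicate 2, called GC-adjusted below and given on the log2 scale. The direction was then shared for 8 of 11 pairs, but not the same pairs. Smad2 with Smad3 and Smad7 with Smad6 no longer shared it. Tgfb1 with Tgfb2, Tgfb2 with Tgfb3, Tgfbr2 with Tgfbr1 and Tgfbr3 with Tgfbr1 did, the first on 1 count for Tgfb1 in replicate 1. Smad4 exceeded Smad2 by 3.24-fold in replicate 1 (95% interval 2.68 to 3.94) and 2.64-fold in replicate 2 (2.29 to 3.05), and these intervals overlap. Smad4 exceeded Smad3 by 12.9-fold (9.93 to 16.9) and 3.52-fold (3.12 to 3.98). It exceeded Smad7 by 13.7-fold (10.3 to 18.6) and 4.0-fold (3.44 to 4.66). The shared Smad was thus above the receptor-activated and inhibitory Smads in each library, by amounts that differed beyond counting error for Smad3 and Smad7. These amounts changed with the GC adjustment. The log2 ratio in replicate 1 went from 3.39 to 2.43 for Smad3, from 3.48 to 0.58 for Smad7 and from 1.64 to 2.93 for Smad2. In replicate 2 the log2 ratios were 1.79, 1.97 and 1.39. Smad2 exceeded Smad3 by 3.97-fold (2.93 to 5.42) and 1.33-fold (1.14 to 1.56). GC-adjusted, the log2 ratio of Smad2 over Smad3 in replicate 1 went from 1.75 to -0.50, beside 0.41 in replicate 2.

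Among receptors, Tgfbr3 over Tgfbr2 had unadjusted ratios of 0.886 (95% interval 0.780 to 1.01) and 0.965 (0.884 to 1.05), which include 1. GC-adjusted, its log2 ratio in replicate 1 went from -0.17 to -1.91. Tgfbr2 over Tgfbr1 was 0.908 (0.803 to 1.03) in replicate 1 and 2.70 (2.40 to 3.05) in replicate 2. Tgfbr3 over Tgfbr1 was 0.805 (0.715 to 0.906) and 2.61 (2.33 to 2.93), so these ratios differed in direction or size between the libraries. GC-adjusted, both had the direction of replicate 2, whose GC profile the adjustment takes over. The log2 ratios in replicate 1 were 3.15 for Tgfbr2 over Tgfbr1 and 1.24 for Tgfbr3 over Tgfbr1, beside 1.41 and 1.36 in replicate 2. Among ligands, Tgfb2 over Tgfb3 was 1.95 (1.36 to 2.84) in replicate 1 and 0.278 (0.224 to 0.343) in replicate 2. Tgfb1 over Tgfb2 was 0.0202 (0.000506 to 0.114) and 3.67 (2.92 to 4.63). Tgfb1 over Tgfb3 in replicate 2 was 1.02 (0.853 to 1.22). No order of the ligands held in both libraries without the adjustment. GC-adjusted, Tgfb2 was below Tgfb3 in replicate 1, as in replicate 2, with log2 ratios of -1.03 and -1.78 for Tgfb2 over Tgfb3. For Tgfb1 over Tgfb2 the log2 ratios were 0.44 and 1.81. With 1 count for Tgfb1 in replicate 1, Tgfb1 and Tgfb2 cannot be ranked there after the adjustment. The inhibitory Smads, Smad7 over Smad6, had ratios of 1.20 (0.744 to 1.96) and 1.14 (0.931 to 1.39), which include 1. GC-adjusted, the log2 ratio in replicate 1 went from 0.19 to -1.02.

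**Figure D4:**
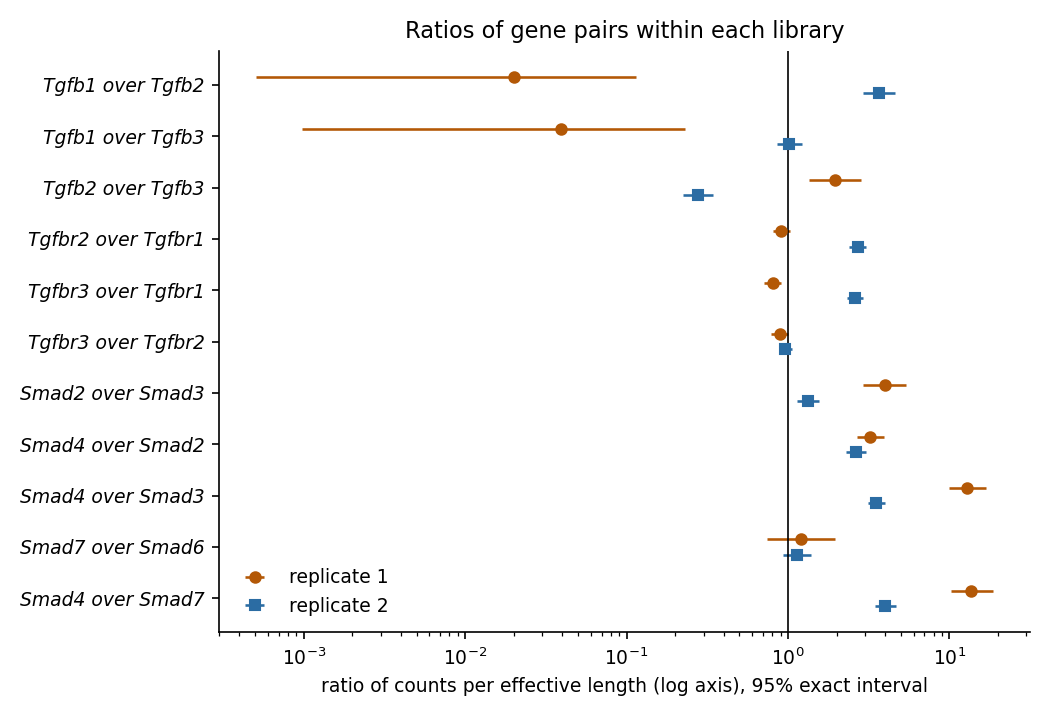
Ratio of counts per effective length (log axis) for 11 gene pairs in replicate 1 (circles) and replicate 2 (squares), with 95% exact binomial intervals; the vertical line marks 1. The 3 ratios with Smad4 on top lie right of the line in both libraries, and the ligand ratios lie on different sides or at the line.

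Of the 44 transcripts, 14 had counts in replicate 1 and 20 in replicate 2. The same transcript led in both libraries for all 10 genes, although for Tgfb1 in replicate 1 this rests on 1 count and Tgfb3 has 1 transcript. With posterior mean estimates the leading transcript was shared for 9 genes. Leading transcripts carried at least 94.5% of their gene's abundance in replicate 1 and at least 66.1% in replicate 2. These shares are deposited estimates with no interval. By posterior means the shares were lower: Smad3-201 had 49.0% and 71.3%, Smad7-201 55.6% and 56.7%, Tgfb2-201 60.7% and 45.8%, and Smad2-205 65.8% and 52.3% in replicates 1 and 2. For Tgfb1-201 in replicate 1 the posterior share was 16.2%.

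For Tgfbr2, the form without the inserted exon printed above, Tgfbr2-201, carried 100% of the gene's abundance in replicate 1 and 70.6% in replicate 2. The form with the insert, Tgfbr2-202, had 0 of 455 counts in replicate 1 and 275.61 of 927 in replicate 2, a share of 29.4% of the abundance. By posterior means its share was 6.80% and 29.9%. The transcripts differ by 75 bases in the deposited tables, so the split rests on reads that touch this exon or the junction it interrupts. The coding length is 1701 bases without the insert and 1776 with it, and the inserted bases have a GC content of 44%.

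Other genes had second transcripts in replicate 2 that carried no count in replicate 1. Smad7-201 went from 100% to 66.1% of the gene's abundance. In replicate 2 Smad7-204 had 21.1% on 9.06 counts and Smad7-202 had 12.8% on 16.05 counts. By posterior means the share of Smad7-201 hardly differed, at 55.6% and 56.7%. Smad7-204 codes for 681 bases against 1278 in the leading form. Smad2-205 carried 94.5% and 71.5%, and Smad2-203, which has a shorter coding sequence, carried 19.2% in replicate 2 on 24 counts. Smad4-204, a short processed transcript with no coding sequence, had 20.8% of the Smad4 abundance in replicate 2 on 18.41 counts, beside 79.2% for Smad4-201. Tgfb2-202, a retained-intron transcript, reached 17.0% on 2.71 counts. Short transcripts take a large share of abundance on few counts, since abundance is per length. Tgfbr1-201 carried 98.3% and 94.1%, and Smad3-201 carried 100% and 98.8%. Tgfb1, Tgfb3 and Tgfbr3 gave 1 transcript with 100% in both libraries.

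**Figure D5:**
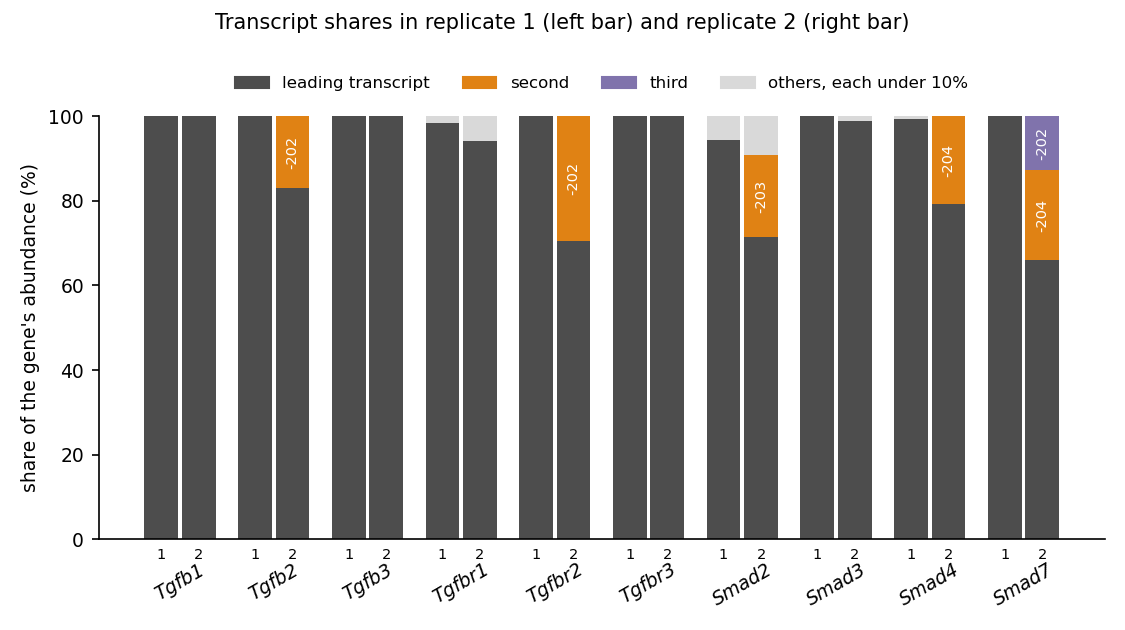
Share of each TGF-beta gene's abundance (percent) carried by its leading transcript and by transcripts of at least 10% in a library, in replicate 1 (left bar) and replicate 2 (right bar). Second transcripts of at least 10% appear in replicate 2 for Tgfb2, Tgfbr2, Smad2, Smad4 and Smad7.

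Around these genes, 77 further genes of the pathway were listed and 71 were tested, of which 27 were higher in replicate 2, 20 were lower and 24 were not called. Over all genes tested 38.4% were higher and 27.1% lower, and the pathway counts lie near these shares. Their median log2 ratio was 0.01, beside 0.21 for all genes. With the transcript GC trend removed, 10 were higher, 14 lower and 47 not called, where 10.2% of all genes were higher and 10.9% lower. Of 13 genes that hold or release latent ligand, 7 were higher, 3 lower and 3 not called, with a median of 2.77, beside 38.4% and 27.1% of all genes higher and lower. With the trend removed, 2 were higher and 11 not called, beside 10.2% and 10.9%. Ltbp4, a latent TGF-beta binding protein of the matrix, had 5 counts in replicate 1 and 5092 in replicate 2, a log2 ratio of 8.38 that was 3.25 with the trend removed. Furin, the protease that cuts the site in capitals above, had 31 and 1759 counts, with ratios of 4.33 and -0.13. Itgav, an integrin subunit that activates latent ligand, had 596 and 551 counts, with ratios of -1.58 and -0.11. Ltbp1 had 300 and 871 counts and was not called, at 0.07.

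Of 10 tested receptors of related ligands, 3 were higher, 5 lower and 2 not called, where all genes had 38.4% higher and 27.1% lower. The BMP receptor Bmpr1a had 2948 and 1886 counts and a log2 ratio of -2.11. Bmpr2 was at -2.39 with 3655 and 1935 counts, and the activin receptor Acvr2a at -2.41 with 935 and 487. These 3 receptors were under 2-fold with the GC trend removed, when 1 of the 10 was higher and 1 lower (10.2% and 10.9% of all genes). Eng (endoglin, an endothelial co-receptor) had 22 and 3171 counts, with ratios of 5.67 and, with the trend removed, 2.04. Of the 4 other Smads, Smad6, the inhibitor of BMP signalling, was higher at 1.15 (29 and 181 counts) and Smad9 lower at -1.60 (59 and 54). Smad1 and Smad5, the BMP-activated Smads, were not called, at -0.81 and -0.74. Smad6 turned to -3.76 with the trend removed, the same turn as in Smad7, and Smad9 was again lower, at -1.23. Of the 4 other Smads, 0 were then higher, 2 lower and 2 not called (10.2% and 10.9% of all genes).

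Of 21 tested regulators and partners of receptors and Smads, 3 were higher, 9 lower and 9 not called, against 38.4% higher and 27.1% lower over all genes. The ubiquitin ligase Wwp1 was at -2.04 (2123 and 1427 counts) and the deubiquitinase Usp15 at -1.27 (1045 and 1202). With the trend removed these were 0.09 and 0.37, and of the 21 genes 2 were higher, 3 lower and 16 not called, against 10.2% and 10.9% of all genes. The phosphatase Ppm1a, at -0.08, and the adaptor Tab2, at -0.97, were not called, but Ppm1a was higher at 1.26 with the trend removed. Among 12 other ligands of the superfamily, 8 were tested, with 5 higher, 1 lower and 2 not called, against the same 38.4% and 27.1%. Bmp10, an atrial ligand, had 113 and 858 counts, with a log2 ratio of 1.45 that was 2.41 with the GC trend removed. Bmp6 and Bmp4 were higher at 3.27 (10 and 281 counts) and 2.25 (4 and 59). Inha, the inhibin alpha subunit, had 0 counts in replicate 1 and 61 in replicate 2. Its level was at least 7.34-fold higher in replicate 2 against a floor of 3 counts in replicate 1. With the trend removed, Bmp6, Bmp4 and Inha were not called, and of the 8 ligands 1 was higher, 2 lower and 5 not called (10.2% and 10.9% of all genes). Nodal, an embryonic ligand, had no count in either library.

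Of 15 genes known to respond to TGF-beta in many cell types, 8 were higher in replicate 2, 1 was lower and 6 were not called, beside 38.4% and 27.1% of all genes. With the trend removed, 4 were higher, 6 lower and 5 not called, beside 10.2% and 10.9%. Acta2, smooth muscle actin, was higher by 3.25 (142 and 3757 counts) and by 3.19 with the trend removed. Postn, a matrix protein of activated fibroblasts, was lower at -1.15 (737 and 919), and this became 0.32. Ccn2, a matricellular protein, was at -0.23 (1057 and 2500) and Col3a1, a fibrillar collagen, at -0.28 (1718 and 3934). Neither was called until the trend was removed, when both were lower, at -1.07 and -1.30.

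Markers of cell types also differed between the libraries, where 38.4% of all genes were higher in replicate 2 and 27.1% lower. Fibroblast markers summed to 2697 nuclear TPM in replicate 1 and 1128 in replicate 2, with 2 of 7 higher, 2 lower and 3 not called. This sum is led by Dcn, at 1979 and 773 nuclear TPM, and then Lum, at 411 and 116. Dcn and Lum were the 2 lower genes, and neither was called with the GC trend removed, at 0.38 and 0.03. With the GC trend removed, 1 was higher and 3 lower (10.2% and 10.9% of all genes). Mural cell markers summed to 1710 and 639, with 5 of 7 higher and 1 lower, and with the GC trend removed 2 higher and 0 lower. The mural sum is led by Rgs5, a pericyte gene, at 1393 and 322 nuclear TPM. In deposited TPM the fibroblast sums were 195 and 441 and the mural sums 123 and 250, both higher in replicate 2. Sums were higher in replicate 2 for cardiomyocyte (43554 and 79829), endothelial (419 and 707) and macrophage markers (179 and 497). Of the 7 endothelial markers, 4 were higher, 1 lower and 2 not called. Egfl7 leads their sum in replicate 2, at 34.9 and 259 nuclear TPM in replicates 1 and 2. Emcn, at 131 and 60.4, was called lower, and Kdr, at 105 and 82.6, was not called. The cardiomyocyte sum in replicate 1 is led by Pln, the calcium pump regulator phospholamban, at 29345 nuclear TPM against 6039.5 in replicate 2, while 5 of the 7 markers were higher in replicate 2. The sums for red cell markers were 1001 and 12857, with all 5 higher in replicate 2. With the GC trend removed, all 5 were higher (10.2% of all genes). So were 3 of 7 cardiomyocyte, 4 of 7 macrophage and 1 of 7 endothelial markers, and none of these was lower (10.9% of all genes). Platelet markers were low, at 31.4 and 49.0, led by Pf4 at 23.6 and 45.2 nuclear TPM (22 and 136 counts). Ppbp had 16 and 11 counts, Itga2b 0 and 16, Gp1bb 1 and 2, and Gp9 had none. Pf4 was called higher and Ppbp lower, and neither was called with the GC trend removed. The part of these differences in the ratios of the TGF-beta genes was not tested.

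Reads of overlapping genes may limit a few of these values, and no source used here says whether reads were counted by strand. Exons of Tgfb2 overlap those of the antisense gene Gm29491 by 124 bases, and exons of Tgfb3 overlap those of Gm37804 on the other strand by 163 bases. Neither overlapping gene had a count. Tgfb3 and Tgfbr3 also share exonic bases with Gm48008 (257 bases) and Gm43422 (297 bases), which are not among the genes of the deposited tables. Gm43422 lies on the same strand as Tgfbr3, so counting by strand would not separate their reads.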

How the data were processed

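Per the labels, extraction used a lipid tissue kit; the region of the heart is not stated there. Expected counts, estimated per gene and per transcript and so at times fractional, were deposited. The same deposited tables hold TPM and FPKM values, and each transcript's share of its gene as a percent. Per the deposited file descriptions, the assembly is mm10 and the annotation M4. No name of the aligner or counting program is given in the sources used here. Gene identifiers were matched without version to GENCODE M21 of the same assembly, and 42462 of 43346 genes gained a symbol. Mitochondrial genes and 11 nuclear copies (blastn 2.17.0, at least 95% identity over 90% of their length) were removed for nuclear TPM, which left 5028154 counts in replicate 1 and 12654724 in replicate 2. FPKM and posterior means served only in alternatives.

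Expected counts were rounded and compared with the two-sided exact binomial test of edgeR 4.0.16 (R 4.3.3), since 1 library on each side leaves no residual spread. Genes with at least 20 counts over both libraries were tested, and 99.8% of them had a GC value. DESeq2 1.42.0 gave alternative size factors. The calling step was also run on simulated Poisson counts with set fold changes, without and with an added GC trend. Apart from these, the simulated counts hold counting error only, so the run does not measure other differences between the libraries. Intervals and floors (3 counts) cover counting error only, because reads are not independent molecules. Log2 pair ratios, of each library and as means, are of TPM plus 0.1 unless an alternative is named. Other steps used pandas 2.3.3, scipy 1.17.1 and numpy 2.4.6 in Python 3.11.15.

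The genes, lists, pairs and tests were chosen with earlier results of these data known. Named are the 10 genes, their transcripts of at least 10% in a library, both genes of each pair, and, of each list, the 4 genes of highest mean nuclear TPM with those without a count. Alternatives covered scaling, filters, fold, pseudocount, abundance estimate and GC content. The sequence of 1 ligand is not reported here.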

Additional observations from a re-analysis of the deposited data

How the results depend on the processing

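With 5 of the 10 genes called, the count was 10 at any fold (6 lower), where 84.9% of all genes were called, and 3 with the transcript GC trend removed (0 higher), where 21.1% were. With the coding GC trend removed, chosen after seeing the data, 1 was higher and 4 lower. Pathway calls fell from 47 to 24 with the transcript GC trend removed, and those higher from 27 to 10, or to 11 with coding GC, where 23 were lower in place of 20 and 34 were called in all; over all genes, calls fell from 8635 to 2770 and 5053. Directions turned for Smad2 (0.39 and 0.13 with transcript and coding GC), Smad3 (-0.42 and -1.22) and Smad7 (-2.97 and -2.77); that the trend itself was removed is the alternative's construction, and the cause of the trend was not tested. The median log2 ratio of all genes was 0.21 with TMM, 0.11 with DESeq2 size factors and 0.35 with nuclear totals, and 58.6%, 55.8% and 62.4% of calls were higher; with the GC trend removed 48.4% were, and 47.7% with coding GC. The mean log2 ratio of Tgfb1 over Tgfb2, -0.52 ± 3.30 (SD, n = 2), was 0.29 with a pseudocount of 1 TPM and 1.12 with the GC adjustment. With the GC adjustment Smad2 over Smad3 turned to -0.050, Tgfbr3 over Tgfbr2 went from -0.11 to -0.98, Tgfbr2 over Tgfbr1 from 0.64 to 2.28, Smad4 over Smad2 from 1.51 to 2.16 and Smad4 over Smad7 from 2.73 to 1.28. Tgfb2 over Tgfb3 turned to 0.20 with posterior means. Smad7 over Smad6, 0.19, turned to -0.069 with posterior means, -0.42 with the GC adjustment and -0.016 with the leading transcript's effective length, an alternative added after seeing the data. Leaving out 1 library gave Tgfb1 over Tgfb2 from -2.86 to 1.81, Tgfb1 over Tgfb3 from -2.06 to 0.026, Tgfb2 over Tgfb3 from -1.78 to 0.80, Tgfbr2 over Tgfbr1 from -0.14 to 1.41 and Tgfbr3 over Tgfbr1 from -0.30 to 1.36; the summed level went from 169 to 251. Means of these sums were 42.1 in deposited TPM and 76.2 in nuclear TPM with the copies kept. In deposited TPM the sum was 18.1 in replicate 1 and 66.1 in replicate 2. Its direction between the libraries thus depends on the rescaling and on the removal of the copies. A call between the libraries needs both, so none could be left out there. No paired analysis was possible because both libraries belong to 1 group. The ratios of Tgfb1 rest on 1 count in replicate 1, which makes their intervals wide. With Tgfb1 at 0.02 deposited TPM there, its log2 pair ratios in replicate 1 depend on the 0.1 TPM added. They are smaller in size than the ratios of counts per effective length.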
